A study of Homo sapiens with 6 samples.

Results

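The iron storage, uptake and ferritinophagy genes examined here are 10 genes chosen by symbol: the ferritin chains FTH1 and FTL, the uptake genes TFRC, STEAP3 and SLC11A2, the exporter SLC40A1, the iron sensors ACO1 and IREB2, the ferritin receptor NCOA4 and the heme-degrading enzyme HMOX1. They make up 10 of the 62710 genes in the deposited tables, and all 10 were among the 16753 genes with enough counts to be tested. RNA was sequenced from HCT116, a human colon cancer cell line, in 3 libraries of cells carrying a scrambled control shRNA (sh-NC) and 3 libraries of cells carrying an shRNA against IGF2BP3 (sh-IGF2BP3). IGF2BP3 is an RNA-binding protein that stabilizes many of its target mRNAs, and the comparison asks how gene expression differs when it is depleted. Both groups were stable lines made by lentiviral infection and puromycin selection with 1 shRNA each, so a difference between them is also a difference between the lines as they were selected. No source used here says whether the 3 libraries of a group came from separate cultures, and the p-values below measure the spread between these libraries, which may be technical. Values of the control (sh-NC) and knockdown (sh-IGF2BP3) libraries are given in the order of libraries 1, 2 and 3 of each group.

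Iron enters most cells bound to transferrin, which the transferrin receptor carries into endosomes. There a STEAP reductase reduces the iron and the transporter DMT1 moves it to the cytosol. Ferritin, a shell of heavy and light chains, stores what is not used, ferroportin exports it, and NCOA4 delivers ferritin to lysosomes for breakdown, a route called ferritinophagy. The balance is set largely after transcription: when iron is low, the iron regulatory proteins IRP1 and IRP2 bind stem-loops called iron-responsive elements, which blocks translation when the element lies in a 5′ UTR and protects the mRNA from decay when it lies in the 3′ UTR of TFRC. Free ferrous iron feeds the lipid peroxidation of ferroptosis, so each of these genes bears on how much iron is available to that form of cell death. An RNA library measures mRNA levels and not translation, and in bulk RNA fewer cells of a kind cannot be told apart from less RNA per cell.

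The elements themselves are shown because they are the sequences through which the ferritin chains, TFRC and the transporters answer to iron. Transcripts of GENCODE 29 (GRCh38) were searched on the sense strand for a bulged C, 5 stem bases, the loop CAGTGN and 5 stem bases able to pair with the first. Each line gives 30 bases of the mRNA, 5′ to 3′, written as DNA, with the 6 loop bases in capitals.
FTH1, 5′ UTR, chr11:61967574-61967603, minus strand: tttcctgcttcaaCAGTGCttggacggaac
FTL, 5′ UTR, chr19:48965334-48965363, plus strand: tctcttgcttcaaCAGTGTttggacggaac
SLC40A1, 5′ UTR, chr2:189580661-189580690, minus strand: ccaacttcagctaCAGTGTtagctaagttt
TFRC, 3′ UTR, chr3:196050979-196051008, minus strand: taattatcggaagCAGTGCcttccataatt
TFRC, 3′ UTR, chr3:196050575-196050604, minus strand: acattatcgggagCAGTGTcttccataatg
TFRC, 3′ UTR, chr3:196050510-196050539, minus strand: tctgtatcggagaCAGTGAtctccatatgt
TFRC, 3′ UTR, chr3:196050463-196050492, minus strand: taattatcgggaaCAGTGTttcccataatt
SLC11A2, 3′ UTR, chr12:50988269-50988298, minus strand: tagccatcagagcCAGTGTgtttctatggt

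The ferritin chains share the same stem (TTCAA before the loop and TTGGA after it), and all 5 pairs could form in FTH1, FTL, SLC40A1 and the 4 TFRC sites. In SLC11A2, 4 of 5 pairs could form. The element was in 7 of 8 coding transcripts of FTH1 and in the 1 coding transcript of FTL, but in only 5 of 18 coding transcripts of SLC11A2 and 1 of 5 of SLC40A1, so for those transporters the gene counts mix transcripts with and without it. A match with 5 of 5 pairs in a UTR was held by 136 of 13095 tested coding genes (1.04%), and a match with at least 4 pairs by 927 (7.08%), among them ACO1 and IREB2 in their 3′ UTRs. A match describes letters and is not by itself a binding site, and NCOA4, HMOX1 and STEAP3 held none. An element with another loop or stem would be missed by this search. The 4 TFRC sites, like those of the other genes, therefore need not be all that the mRNA holds.

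The libraries held 16146718 to 23576469 counts, and libraries of a group differed by more than counting noise (in a chi-square test over genes, the statistic was at least 18.96 times its degrees of freedom for any pair). IGF2BP3 itself, the target of the shRNA, was at 90.3, 84.1 and 70.3 CPM (counts scaled to a common library total after TMM normalization) in the control libraries and at 60.2, 52.3 and 55.8 CPM in the knockdown libraries. It was lower in every sh-IGF2BP3 library, with a log2 fold change of −0.54 (SE 0.181, adjusted p = 0.126, edgeR quasi-likelihood test with Benjamini-Hochberg adjustment), and −0.20 with overlapping groups once the trends with GC content and gene length were removed. The study reports the knockdown in HCT116 cells by qPCR and Western blot. The libraries differed in how counts followed GC content, with slopes of −0.054, −0.23 and −0.21 in log2 CPM per 10 percentage points in the control libraries and of 0.35, 0.15 and −0.0084 in the knockdown libraries, and each gene below is therefore also given with those trends removed. Every control slope was below every knockdown slope, so removing the trends can also remove part of a difference between the groups. Leaving out sh-NC 1 raised the genes called in the whole table from 0 to 1739 higher and 985 lower, more than any other setting gave. Of 7 colon epithelial markers, 5 were above 1 CPM in every library and VIL1 and CDX1 stayed at or below 0.196 CPM. Their summed level ranged from 2018 to 3685 CPM in sh-NC and from 3127 to 4156 CPM in sh-IGF2BP3, while 8 markers of immune, stromal, endothelial and red cells summed to 30.2 to 51.9 and 32.1 to 62.5 CPM, almost all of it COL1A1.

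Across the 10 genes, FTH1 showed the largest difference, at 3.68 times its sh-NC mean, followed by HMOX1 at 1.74 and FTL at 1.35 times, while the uptake, export, sensor and NCOA4 genes lay between 0.772 and 1.14 times. Requiring a change of more than 1.5 fold at an adjusted p below 0.05, 0 of the 10 genes were called, as were 0% of all genes tested (edgeR quasi-likelihood test, Benjamini-Hochberg adjustment). At an unadjusted p below 0.05, FTH1 and HMOX1 were higher, 2 of 10 against 13.6% of all genes, and 0 of 10 were lower, against 8.54%. In CPM, groups without any overlap of libraries were found for 0 of 10 genes on the higher side, against 13.2% of all genes, and for SLC11A2 and ACO1 on the lower side, 2 of 10 against 11%. For a set of 10, these counts are close to the shares of the whole table. The log2 fold changes were above 0 for 5 genes and below 0 for 5, with a median of −0.033 beside −0.014 over all genes, and of 0.075 beside 0.021 with the GC and length trends removed.

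**Figure D1:**
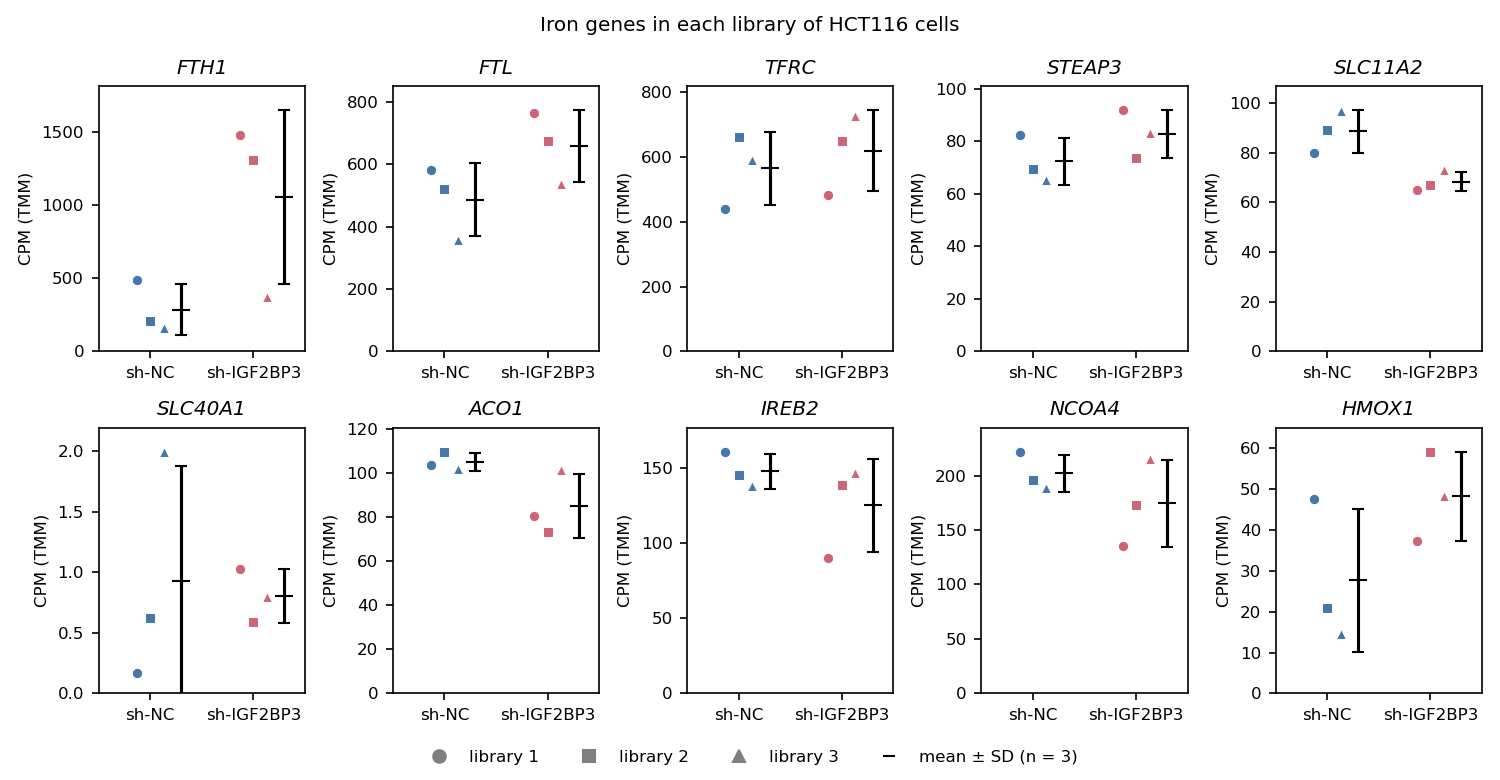
Level of each of the 10 iron genes in CPM (TMM-normalized, linear axis from 0), with 1 point per library (circle, square and triangle for libraries 1, 2 and 3), blue for sh-NC and red for sh-IGF2BP3, and bars for the mean ± SD (n = 3; the lower bar of SLC40A1 is clipped at 0). FTH1 stands far above its sh-NC points in sh-IGF2BP3 1 and 2 but not in sh-IGF2BP3 3, and only SLC11A2 and ACO1 have groups that do not overlap.

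FTH1 (ENSG00000167996, chromosome 11, 61959718 to 61967634, minus strand, GRCh38) encodes the ferritin heavy chain, the ferroxidase that oxidizes iron for storage. Its level was 489, 209 and 161 CPM in the control libraries, and 1480, 1309 and 375 CPM in the knockdown libraries. The first 2 sh-IGF2BP3 libraries were far above all others, and sh-IGF2BP3 3 lay below sh-NC 1, so the groups overlapped. The control libraries averaged 286 ± 177 CPM and the knockdown libraries 1055 ± 595 CPM (SD, n = 3 each), and the log2 fold change was 1.88 (SE 0.436, 95% interval 0.96 to 2.81). The unadjusted p of 0.000551 ranked 76th of all genes tested, and the adjusted p was 0.103 (edgeR quasi-likelihood test, Benjamini-Hochberg adjustment). A 2-sided exact permutation test over the libraries gave p = 0.2, where 0.1 is the smallest p that 3 libraries against 3 allow.

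Removing the GC and length trends left FTH1 at 1.82, with the groups still overlapping. Its GC content of 50.1% is close to the median of all genes tested (48.7%). The order of its levels followed the GC slopes of the libraries closely all the same: sh-IGF2BP3 1 and 2 had the steepest positive slopes and the highest FTH1, sh-NC 1 and sh-IGF2BP3 3 had slopes near 0 and intermediate FTH1, and sh-NC 2 and 3 had the most negative slopes and the lowest FTH1. Beyond the trend removal, the part of these slopes in the FTH1 difference was not tested. Leaving out single libraries moved the log2 fold change between 1.56 and 2.51. Without sh-NC 1 it was 2.51 with an adjusted p of 0.00184, and without sh-IGF2BP3 3 it was 2.25 with an adjusted p of 0.0286, so whether FTH1 passed the threshold turned on those libraries (same edgeR test).

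FTL (ENSG00000087086, chromosome 19, 48965309 to 48966879, plus strand) encodes the ferritin light chain, which helps the iron core form. It was measured at 581, 522 and 358 CPM in the control libraries, and at 765, 674 and 538 CPM in the knockdown libraries. Only sh-IGF2BP3 3 reached into the sh-NC range. The group means were 487 ± 116 and 659 ± 114 CPM (SD, n = 3), a log2 fold change of 0.44 (SE 0.220, 95% interval −0.029 to 0.90, adjusted p = 0.255, edgeR). With the GC and length trends removed it was 0.16, less than its own standard error of 0.184. The FTL difference was smaller than that of FTH1 between the same libraries.

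The relation between the chains was read within each library, where the library total cancels. Library trends with GC content and gene length do not cancel. With those trends removed, the log2 fold changes of the chains were 1.82 for FTH1 and 0.16 for FTL. The FTH1 to FTL ratio of FPKM values (counts divided by library total and gene length) was 0.366, 0.175 and 0.196 in the control libraries, and 0.841, 0.844 and 0.303 in the knockdown libraries. Per gene length, FTL was therefore above FTH1 in all 6 libraries, and the chains came closest in sh-IGF2BP3 1 and 2. In CPM, which ignores length, the ratio was 0.841, 0.402 and 0.45 in the control libraries and 1.93, 1.94 and 0.698 in the knockdown libraries, so FTH1 took more counts than FTL in sh-IGF2BP3 1 and 2 only. The mean log2 ratio was higher by 1.37 in sh-IGF2BP3, with overlapping groups (exact permutation p = 0.2) and a range of 1.12 to 1.86 when single libraries were left out.

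Ferritin genes have many processed pseudogenes, whose near-identical sequence can take reads from the parent, and how the authors assigned such reads is not given in the sources used here. Of 25 FTH1 pseudogenes, 17 had any count, and together they held 35 to 66 counts a library, 0.135% to 1.72% of the family. The 16 FTL pseudogenes, 7 of them with counts, held 15 to 41 counts, 0.112% to 0.397% of theirs. FTH1P3, FTH1P1 and FTLP12 had the most counts and were tested, with log2 fold changes of 0.49, −0.19 and 0.21 and adjusted p from 0.607 to 0.840 (edgeR). Adding the pseudogene counts to the parents gave 1.87 for FTH1 and 0.44 for FTL.

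In a description chosen after the values were seen, exons of other genes in GENCODE 29 covered 62.4% of the exon bases of FTH1, all of them on the opposite strand and most of them from BEST1, against 11.0% for STEAP3 (STEAP3-AS1) and 0% for the other 8 genes. Of 16241 tested genes with this annotation, 483 (2.97%) had at least 50% of their exon bases covered. The annotation release behind the counts is not given in the sources used here, so these shares hold for GENCODE 29 only. The deposited tables also place ENSG00000289092, with at most 87 counts in a library, over NCOA4 on the opposite strand. BEST1, a chloride channel of the retina, held only 9, 38 and 26 counts in the control libraries and 14, 11 and 5 counts in the knockdown libraries. Whether reads were assigned by strand is not given in the sources used here, and the part of this overlap in the FTH1 counts was not tested. A counter that ignores strand can leave out or divide reads where exons of different genes lie over each other, so the level of FTH1, its rank and its ratio to FTL hold only for the counts as deposited.

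TFRC (ENSG00000072274, chromosome 3, 196012511 to 196082153, minus strand) encodes transferrin receptor 1, the main entry for iron. Its level was 441, 663 and 593 CPM in the control libraries, and 482, 650 and 728 CPM in the knockdown libraries. The lowest library of each group was number 1, and the groups overlapped over most of their range. The log2 fold change was 0.13 (SE 0.217, 95% interval −0.33 to 0.59, adjusted p = 0.745, edgeR), and it was −0.014 without sh-NC 1. Removing the GC and length trends moved it to 0.53 (SE 0.168, adjusted p = 0.361, edgeR), with every sh-IGF2BP3 library then above every sh-NC library. TFRC is the one gene of the 10 whose groups separated only after that correction, and its GC content (41.5%) is below the median. The correction took its length as the 17376 bases behind the deposited FPKM values, while its GENCODE exons cover 7887 bases. How far the 0.53 and the separation of the groups depend on that length was not tested.

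The TFRC to FTH1 ratio sets uptake against storage in the same library. In FPKM it was 0.104, 0.365 and 0.425 in the control libraries, and 0.0376, 0.0572 and 0.224 in the knockdown libraries. In CPM, which ignores length, it was 0.903, 3.17 and 3.68 in the control libraries and 0.326, 0.496 and 1.94 in the knockdown libraries. TFRC took more counts than FTH1 in sh-NC 2, sh-NC 3 and sh-IGF2BP3 3, and fewer in the other libraries. The mean log2 ratio differed by −1.69 (sh-IGF2BP3 minus sh-NC), with sh-IGF2BP3 3 above sh-NC 1 and an exact permutation p of 0.2. Leaving out single libraries gave −2.45 to −1.16. The log2 fold changes behind it were 0.13 for TFRC and 1.88 for FTH1, or 0.53 and 1.82 with the GC and length trends removed.

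**Figure D2:**
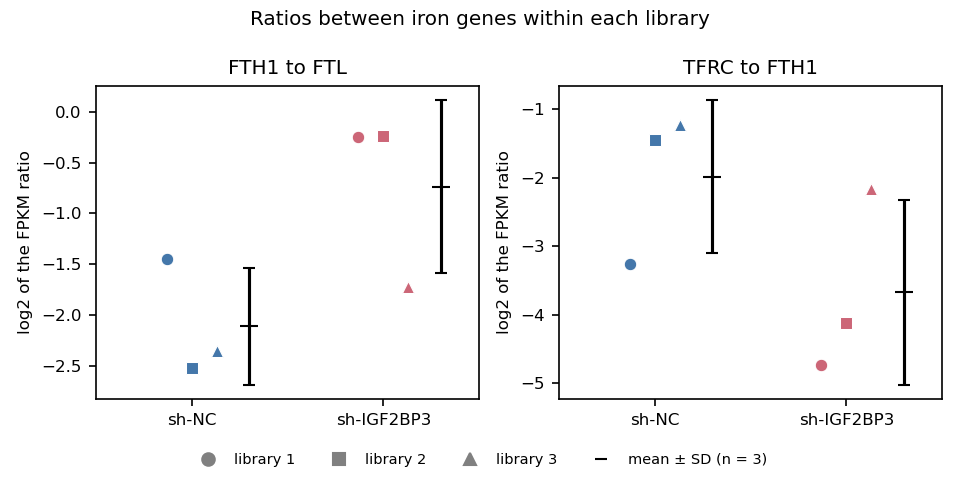
Log2 ratios of FPKM values within each library, FTH1 to FTL on the left and TFRC to FTH1 on the right, with 1 point per library and bars for the mean ± SD (n = 3). For FTH1 to FTL, sh-IGF2BP3 1 and 2 stand above the other 4 libraries. For TFRC to FTH1 they are the lowest, with sh-NC 1 next, and in both panels sh-IGF2BP3 3 lies within the sh-NC range.

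STEAP3 (ENSG00000115107, chromosome 2, 119223831 to 119265652, plus strand), the endosomal ferrireductase, was at 82.3, 69.4 and 65.2 CPM in the control libraries and at 91.7, 73.6 and 82.9 CPM in the knockdown libraries. The groups overlapped, and the log2 fold change of 0.19 (SE 0.183, adjusted p = 0.547, edgeR) became −0.054 with the GC and length trends removed. No direction can be given for STEAP3 from these libraries.

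SLC11A2 (ENSG00000110911, chromosome 12, 50979401 to 51028566, minus strand), which encodes DMT1, was at 79.8, 89.2 and 96.9 CPM in the control libraries and at 65.2, 67.2 and 72.9 CPM in the knockdown libraries. Every sh-IGF2BP3 library lay below every sh-NC library, with a wider gap than the only other such gene, ACO1 (exact permutation p = 0.1, the smallest possible). The means were 88.6 ± 8.55 and 68.4 ± 4.02 CPM (SD, n = 3), a log2 fold change of −0.37 (SE 0.176, adjusted p = 0.226, edgeR). With the GC and length trends removed the difference was −0.066 and the groups overlapped, so most of it was removed with those trends.

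SLC40A1 (ENSG00000138449, chromosome 2, 189560590 to 189583758, minus strand) encodes ferroportin, the only known iron exporter of vertebrate cells. It was barely detected, with 3, 15 and 39 counts in the control libraries and 18, 9 and 14 counts in the knockdown libraries, or 0.169 to 1.99 CPM. The lowest and the highest library were both sh-NC. The log2 fold change of −0.20 had a 95% interval from −1.54 to 1.14 (adjusted p = 0.873, edgeR) and was 0.94 without sh-NC 3, so no direction can be given.

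ACO1 (ENSG00000122729, chromosome 9, 32384603 to 32454769, plus strand) encodes IRP1, which is cytosolic aconitase when it carries an iron-sulfur cluster and binds RNA when it does not. Its level was 104, 110 and 102 CPM in the control libraries, and 80.8, 73.6 and 102 CPM in the knockdown libraries. The groups did not overlap by the narrowest margin, 102.1 CPM in sh-NC 3 against 101.7 CPM in sh-IGF2BP3 3. The log2 fold change was −0.30 (SE 0.184, adjusted p = 0.347, edgeR), and −0.11 with overlapping groups after the trends were removed.

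IREB2 (ENSG00000136381, chromosome 15, 78437431 to 78501453, plus strand) encodes IRP2, which is degraded when iron is plentiful. It was at 161, 145 and 138 CPM in the control libraries, and at 90.0, 139 and 147 CPM in the knockdown libraries. In CPM only sh-IGF2BP3 1 was below the sh-NC range. In FPKM, which is scaled by library totals without TMM, all knockdown libraries (8.34 to 13.2) were below all control libraries (13.8 to 14.3). The log2 fold change of −0.24 (SE 0.205, adjusted p = 0.505, edgeR) was −0.047 with that library left out, and 0.13 with the trends removed.

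NCOA4 (ENSG00000266412, chromosome 10, 46005088 to 46030623, minus strand) is the cargo receptor that binds FTH1 subunits and carries ferritin to the autophagosome. Its level was 222, 196 and 189 CPM in the control libraries, and 136, 173 and 215 CPM in the knockdown libraries. As for IREB2, sh-IGF2BP3 1 was the lowest library and sh-IGF2BP3 3 lay within the sh-NC range. The log2 fold change was −0.21 (SE 0.201, 95% interval −0.64 to 0.22, adjusted p = 0.557, edgeR), and −0.052 with the trends removed.

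HMOX1 (ENSG00000100292, chromosome 22, 35380361 to 35394214, plus strand) encodes the inducible heme oxygenase, which releases iron from heme and responds to oxidative stress. It was at 47.6, 20.8 and 14.7 CPM in the control libraries, and at 37.3, 59.0 and 48.4 CPM in the knockdown libraries. The 3 sh-IGF2BP3 libraries were close together, and sh-NC 1 lay among them, far above the other sh-NC libraries. The means were 27.7 ± 17.5 and 48.2 ± 10.9 CPM (SD, n = 3), a log2 fold change of 0.80 (SE 0.329, 95% interval 0.10 to 1.5). The unadjusted p was 0.0270 and the adjusted p 0.174 (edgeR), with an exact permutation p of 0.2.

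The HMOX1 difference depended on which control library was left out. Without sh-NC 1 it was 1.44 with an adjusted p of 0.00189, and without sh-NC 3 it was 0.47 with an adjusted p of 0.487 (edgeR). Its GC content is the highest of the 10 (58.1%), and with the GC and length trends removed its log2 fold change was 0.50 (SE 0.329). Unlike FTH1, HMOX1 was as high in sh-IGF2BP3 3 as in the other sh-IGF2BP3 libraries.

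**Figure D3:**
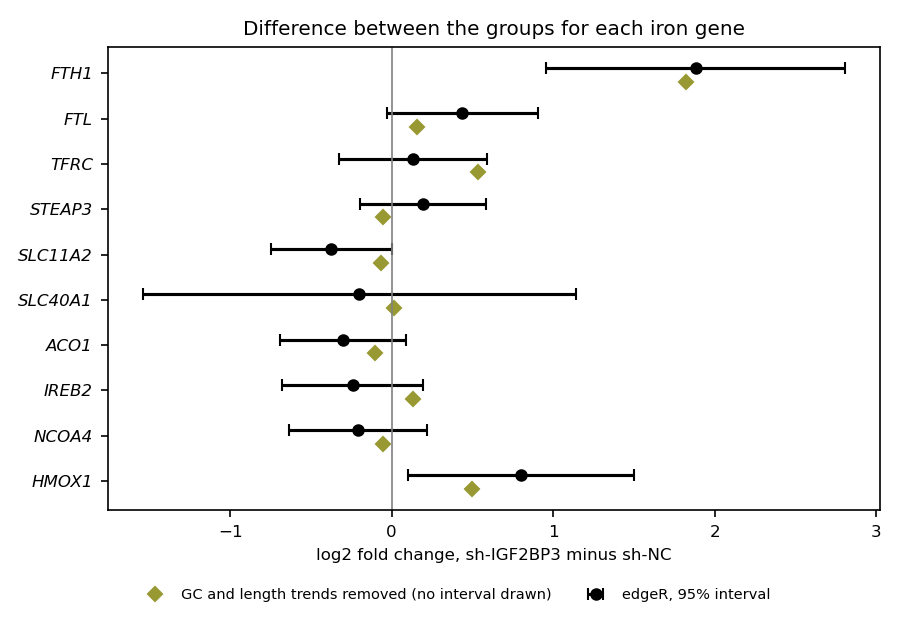
Log2 fold change of each iron gene (sh-IGF2BP3 minus sh-NC, 3 libraries each), as black points with 95% intervals from edgeR, and as diamonds with the GC and gene length trends of the libraries removed. The interval lies wholly above 0 for FTH1 (0.96 to 2.81) and HMOX1 (0.10 to 1.5), the diamond falls near 0 for SLC11A2, STEAP3 and NCOA4, and it moves to 0.53 for TFRC.

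Levels of different genes were compared in FPKM, which is per gene length. The length behind the deposited values was 17376 bases for TFRC, where the GENCODE exons used above cover 7887 bases. For NCOA4 these were 3988 and 4079 bases. A shorter length would raise TFRC against the other genes, NCOA4 among them. The place of TFRC in the order of either group, and its FPKM ratio to FTH1, therefore hold only for the deposited lengths. The removal of the GC and length trends used the same length for TFRC. In sh-NC libraries the mean level was highest for FTL, at 568 ± 104 FPKM (SD, n = 3), followed by FTH1 at 143 ± 79.3, NCOA4 at 51.8 ± 1.45, TFRC at 33.6 ± 8.08 and STEAP3 at 16.2 ± 0.97 FPKM. The ranges of these 5 genes did not overlap with their neighbours in the order. ACO1, IREB2, HMOX1 and SLC11A2 came next with means from 14.3 down to 9.24 FPKM, and the ranges of neighbours in that stretch overlapped. SLC40A1 was last at 0.235 FPKM.

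The order in sh-IGF2BP3 libraries was the same for the first 4 genes, but FTH1 lay closer to FTL in sh-IGF2BP3 1 and 2, though not in sh-IGF2BP3 3. FTL was at 737 ± 141 and FTH1 at 513 ± 294 FPKM (SD, n = 3), with overlapping ranges, and NCOA4 (42.5 ± 9.16) and TFRC (34.6 ± 6.4) also overlapped. HMOX1 came after them at 20.2 ± 4.02 FPKM, ahead of the sensors it had followed in the controls, and overlapped with STEAP3 at 17.7 ± 2.43. IREB2 and ACO1 overlapped at 11.2 and 11.0 FPKM, followed by SLC11A2 at 6.72 and SLC40A1 at 0.186 FPKM.

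The other genes of iron handling were described from lists sorted by role, 84 genes in all, of which 74 were tested. None was called by edgeR (0 higher and 0 lower), while 17 were higher and 7 lower at an unadjusted p below 0.05, where 13.6% and 8.54% of all genes were. Their median log2 fold change was 0.11, beside −0.014 over all genes, and 0.15 beside 0.021 with the trends removed. Of the 74 genes, 46 were above 0 and 28 below, beside 8208 above and 8545 below over all genes tested. DESeq2 on the same counts called 4 of them higher (CISD3, NUBP1, NUBP2 and PCBP4) and RB1CC1 lower, among 562 higher and 137 lower over all genes, and none of the 10 main genes.

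Among the 5 tested storage genes and cytosolic iron chaperones, the lowest p on the higher side belonged to PCBP1, a chaperone that hands iron to ferritin, at 12.4, 6.73 and 3.78 CPM in the control libraries and 42.8, 32.0 and 9.43 CPM in the knockdown libraries. Its log2 fold change of 1.89 (SE 0.457, adjusted p = 0.103, edgeR) was 1.62 with the trends removed, and the groups overlapped in the same way as for FTH1. PCBP3 had the lowest p on the lower side, at −0.47 with an adjusted p of 0.503 (edgeR). PCBP2, its most abundant relative on the list, was at −0.070. PCBP4 was at 0.74 (adjusted p = 0.105, edgeR), or 0.32 with the trends removed, and GLRX3 was at 0.23. The chaperones thus did not share a direction, with 3 of the 5 above 0 and 2 below.

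A list of 8 other genes was tied to the delivery of ferritin to lysosomes or its control, and not all of them promote it. Of these, 4 had a log2 fold change above 0 and 4 below. At an unadjusted p below 0.05 (edgeR), 3 were lower with groups that did not overlap. Of all genes, 8.54% were lower by that p and 11% were lower without overlap. ATG7 was higher without overlap, at a log2 fold change of 0.12 (adjusted p = 0.729, edgeR). RB1CC1, a scaffold of the autophagy initiation complex, was at 68.4, 85.8 and 101 CPM in the control libraries and 46.1, 47.7 and 55.0 CPM in the knockdown libraries, a log2 fold change of −0.78 (SE 0.194, adjusted p = 0.103, edgeR) that was −0.40 with the trends removed. TAX1BP1, an autophagy receptor, had −0.42 and −0.26, and the lipid kinase PIK3C3 −0.43 and 0.016, before and after that removal. ATG9A, the highest of the list by its p, was at 0.14. The median of the list was −0.023, and 0.072 with the trends removed.

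The 11 tested genes of uptake and reduction other than TFRC, STEAP3 and SLC11A2 had a median of −0.23, with 3 above 0 and 8 below, and 0.041 with the trends removed. STEAP2, a ferrireductase, was lowest by its p at −0.81 (adjusted p = 0.136, edgeR), from 32.6 ± 14.1 to 18.6 ± 1.62 CPM (SD, n = 3), with sh-NC 1 as low as the sh-IGF2BP3 libraries. TFR2, the second transferrin receptor, was at 0.62 (adjusted p = 0.197, edgeR) with overlapping groups, and 0.21 with the trends removed.

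On the export side, 3 of 8 genes were tested, with NEO1, a hepcidin pathway receptor, at −0.49 (adjusted p = 0.200, edgeR) and the protease gene TMPRSS6 at 0.021. The ferroxidases that serve ferroportin, CP, HEPH and HEPHL1, held 17, 36 and 26 counts over all 6 libraries, and HAMP, which encodes hepcidin, held 0. Among 4 other sensing genes, CIAO2A, which serves the iron-sulfur cluster of IRP1, was at 0.45 (adjusted p = 0.223, edgeR), without overlap of the groups in CPM. With the trends removed it was at 0.62. EPAS1, whose mRNA carries an iron-responsive element, was at −0.48 (adjusted p = 0.221, edgeR) with overlapping groups.

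Iron-sulfur cluster genes were mostly above 0, as were 8208 of all 16753 genes tested. In the mitochondrial list, 17 of 19 tested genes had a log2 fold change above 0, 4 were higher at an unadjusted p below 0.05 (13.6% of all genes) and 0 lower (8.54%), and the median was 0.23, or 0.32 with the trends removed. CISD3, an iron-sulfur protein of the mitochondrial matrix, was at 9.37 ± 2.54 and 17.8 ± 4.06 CPM (SD, n = 3), a log2 fold change of 0.93 (SE 0.271, adjusted p = 0.111, edgeR) without overlap. The iron importer SLC25A37 had the lowest p on the lower side, at −0.33. In the cytosolic assembly list, 7 of 8 genes were above 0 and 5 were higher at an unadjusted p below 0.05, again beside 13.6% of all genes, with a median of 0.59 that was 0.12 with the trends removed. NUBP2, a scaffold ATPase of that pathway, was at 35.1 ± 9.23 and 69.5 ± 14.8 CPM (SD, n = 3), 0.99 on the log2 scale (SE 0.227, adjusted p = 0.103, edgeR) and 0.60 after removal, and MMS19 was at −0.029.

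In heme synthesis, breakdown and transport, 9 of 16 tested genes were above 0 and the median was 0.10, or 0.056 with the trends removed. HMOX2, the constitutive heme oxygenase and partner of HMOX1, was at 46.1, 36.8 and 25.4 CPM in the control libraries and at 58.1, 71.3 and 47.0 CPM in the knockdown libraries. Its groups did not overlap, with a log2 fold change of 0.70 (SE 0.232, adjusted p = 0.124, edgeR), and 0.43 with the trends removed. Both heme oxygenases were therefore higher at an unadjusted p below 0.05, and neither passed the adjustment (edgeR). Of all genes, 13.6% were higher by that p and 13.2% were higher without overlap. HMOX2 was named because it had the lowest p on the higher side of its list. ABCG2, an exporter of heme and porphyrins, had the lowest p on the lower side at −0.41 (adjusted p = 0.432, edgeR).

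Genes with the profile most like FTH1 were sought among 9796 genes with a mean of at least 10 CPM, by the root mean square difference of log2 CPM values centred on the mean of the 6 libraries. All but COX8A of the genes named for FTH1 reached that mean only through their sh-IGF2BP3 libraries, so the filter itself favoured genes high in that group. The closest was PCBP1, with a difference of 0.155, followed by the processed pseudogene ENSG00000186076 (0.176), RHOF (0.269), a small GTPase, and NDUFS7 (0.290) and COX8A (0.295), both subunits of the respiratory chain. For scale, the FTH1 profile itself departed from a flat line by 1.21. A shared order of libraries and a similar fold change follow from this choice and are not separate findings.

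Exons of other genes covered 52.2% of PCBP1, 71.0% of RHOF, 49.1% of NDUFS7 and 34.5% of COX8A, and 0% of the pseudogene. The gene that covers most of PCBP1, PCBP1-AS1 on the opposite strand, held 680, 970 and 887 counts in the control libraries and 505, 587 and 737 counts in the knockdown libraries, with sh-NC 1 the lowest of its group and the groups overlapping. The part of this overlap in the shared profile was not tested. FTL resembled other genes: AP1S1 (0.041), HNRNPL (0.055), SH3BGRL3 (0.064), HDHD5 (0.066) and MRPS18B (0.067) were closest to it, with exon cover of at most 10.9%. For TFRC they were ATPSCKMT (0.072), SEPTIN2 (0.074), CDKAL1 (0.088), POPDC3 (0.096) and C1orf131 (0.106). None of these lists names the other ferritin chain.

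**Figure D4:**
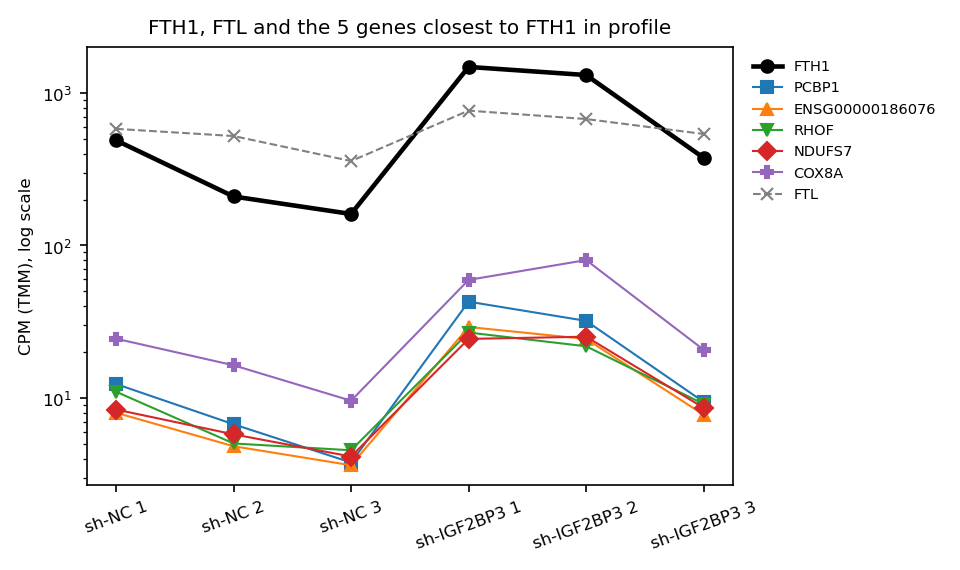
Level in CPM (log axis) of FTH1, of FTL and of the 5 genes whose profile is closest to that of FTH1, in each of the 6 libraries. Lines join the points of a gene and do not mark an order of libraries. FTH1 and the 5 genes, which were chosen for their likeness to it, peak in sh-IGF2BP3 1 and 2 and return toward the sh-NC levels in sh-IGF2BP3 3, while FTL stays between 358 and 765 CPM.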

How the data were processed

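Total RNA of HCT116 cells, extracted with Trizol and made into libraries with a TruSeq kit, was sequenced. The authors deposited raw counts per gene and FPKM for 62710 Ensembl genes on GRCh38. The submitters' processing notes name CASAVA, and the aligner, counter and use of strand are not given in the sources used here. The deposited FPKM values equal counts over the library total and over 1 length per gene, shared by the 6 libraries.

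Counts passed filterByExpr, were scaled by TMM factors and entered the quasi-likelihood test of edgeR 4.0.16 in R 4.3.3, 2-sided, with Benjamini-Hochberg adjustment over 16753 genes. Library trends with GC content (known for 96.9% of tested genes, from GENCODE 29) and gene length were removed as spline offsets with 5 degrees of freedom. Ratios and single genes were compared by exact permutation over the libraries. Alternatives used DESeq2 1.42.0 and limma 3.58.1. The scripts were tested on simulated data.

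The 10 genes, the lists and the tests were chosen with earlier results of these data known. Named besides the 10 were, by rule, the tested gene with the lowest p in each direction of each list, ferritin pseudogenes with a mean of at least 10 counts, and the 5 nearest profiles of FTH1, FTL and TFRC. ATG7, TAX1BP1, PIK3C3, PCBP2, PCBP4, GLRX3, NUBP1 and the untested export genes were named after their values were seen. Library totals ran from 16146718 to 23576469 counts.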

Additional observations from a re-analysis of the deposited data

How the results depend on the processing

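Of 167 values for the 10 genes under other settings, 157 kept their direction and 5 had an adjusted p below 0.05 (FTH1 in 3, HMOX1 in 2, each of 17). Of the 10, 2 were called higher without a filter on low counts (FTH1 with an adjusted p of 1.4e-11 and HMOX1 with 0.0299, edgeR), and 0 to 2 were with single libraries left out (2 without sh-NC 1, 1 without sh-IGF2BP3 3). Over all genes, the calls were 562 higher and 137 lower with DESeq2, 687 and 150 without a filter, 1 higher with RLE normalization, 1 higher with a minimum of 10 counts per library, and 1 lower with limma on log2(FPKM + 1). With single libraries left out they ran from 0 to 1739 higher and 0 to 985 lower. Iron list genes called were 4 higher and 1 lower with DESeq2, 5 and 2 without a filter, and 0 to 12 higher and 0 to 3 lower with single libraries left out. Directions reversed for TFRC (−0.014 without sh-NC 1, −0.0078 without sh-IGF2BP3 3), STEAP3 (−0.054 with the GC and length trends removed, −0.056 with the replicate block as well), IREB2 (0.13 and 0.14 under the same settings) and SLC40A1 (0.018 and 0.32 under the same settings, 0.13 with the block alone, 0.94 without sh-NC 3). With single libraries left out, TFRC ran from −0.014 to 0.29 and SLC40A1 from −0.66 to 0.94. The causes were not tested. The study describes its libraries as pairs of control and knockdown cells, without saying what a pair shares. Same-numbered libraries did not deviate together (correlations −0.28, −0.19 and −0.043), so the numbers were not used as pairs. With the replicate block 0 genes were called, and FTH1 was at 1.82 (adjusted p = 0.0782, edgeR). SLC40A1 fell under the filters of 3 settings. Over the 17 settings the adjusted p of FTH1 ranged from 1.4e-11 to 0.456, and with 3 libraries a group no exact test could fall below 0.1.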
